A study of Ciona savignyi with 56 samples.

Results

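The cells described here are the posterior vegetal blastomeres at the mesenchyme position of Ciona savignyi embryos that were grown with U0126, set against their neighbours at the muscle position in the same embryos. Ciona savignyi is an ascidian, a marine chordate whose embryo cleaves by a fixed lineage, so that each blastomere has a name. The members were chosen by the authors' cell classes: all cells of the class B7.3/7 and all cells of the class B7.4/5/8 in the treated embryos. There were 8 and 9 such cells, 17 of the 125 treated cells and of the 773 cells in the whole series. Each treated embryo gave 4 cells at the mesenchyme position, and the muscle position had 4 cells in embryo 1 and 5 in embryo 2. All tests were made on sums of counts per embryo and class, with the embryo as a block. There were 4 sums for the treated embryos, 6 for the same classes of untreated embryos and 39 for all classes of the 64-cell stage. The spread in the tests was taken from all classes of the embryos in a fit. The p-values thus do not measure how a contrast varies between embryos alone.

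Embryos were taken apart into blastomeres, each blastomere was picked by hand, and the polyadenylated RNA of each was turned into barcoded cDNA by a variant of Smart-seq2 and amplified for 17 cycles. The treated group held 2 embryos of the 64-cell stage (125 cells), raised in sea water with U0126 at 2 ug/ml, and the control group 3 untreated embryos of the same stage (179 cells). The labels give neither the time at which the inhibitor was added nor a control for its solvent, and how a cell was given its class is not stated in the sources used here. Untreated cells carry the separate names B7.3, B7.7, B7.4, B7.5 and B7.8, and they were merged into the 2 treated classes: 11 cells at the mesenchyme position and 15 at the muscle position. A further 3 untreated embryos of the 110-cell stage served to choose 1 list of genes.

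In ascidian embryos, fibroblast growth factor from the endoderm precursors activates MEK and the kinase ERK in neighbouring cells. Of each pair of sister cells in the posterior vegetal margin, the one that receives the signal becomes mesenchyme and the other becomes muscle. B7.7 forms mesenchyme and B7.3 forms mesenchyme and the posterior notochord. B7.4 and B7.8 form tail muscle, and B7.5 forms heart and some muscle. U0126 inhibits MEK, and in ascidians an embryo without this signal forms muscle from cells at the mesenchyme position. The comparison asks which of the transcripts that separate the mesenchyme from the muscle position in untreated embryos still separate the same positions when MEK is inhibited. No names or sequences come with the gene identifiers, so genes are given by identifier, without a function and without sequences.

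The deposited columns of the treated embryos hold reads and those of the untreated 64- and 110-cell embryos hold unique molecular identifiers (UMIs), so the kind of count, the libraries and the treatment cannot be told apart. Every contrast was therefore taken within an embryo first. The treated mesenchyme position held 1897762 reads (475990 UMIs by the authors' cell table) and the muscle position 2997200 reads (582080 UMIs). The untreated positions held 775900 and 990560 UMIs. The median cell had 47750.5 and 53593 UMIs in the treated classes and 55442 and 54451 in the untreated ones. Reads per UMI were 3.99 at the mesenchyme and 5.15 at the muscle position of treated embryos. Treated cells came from 6 libraries, each listed as a pair of entries in GEO and used once here, and untreated cells from 10 libraries. The same 48 primers served in several treated libraries and no primer was repeated within a library, so no 2 cells shared both a library and a primer. Levels below are CPM, counts scaled to a common library total, with library totals adjusted by TMM, a method that matches the bulk of genes between sums. Where no count was found, 3 counts set the upper limit. For the treated mesenchyme position this is 1.58 CPM in reads and 6.30 CPM in UMIs, without the TMM adjustment. Limits and intervals of this kind cover counting error only.

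The genes of the untreated mesenchyme position were nearly absent from the same position under U0126. In untreated embryos, 13 of 5612 tested genes were higher at the mesenchyme position (0.232% of those tested) and 36 were lower (0.641%; edgeR quasi-likelihood test with the embryo as a block, adjusted p under 0.05). In the treated embryos, 10 of the 13 had at most 3 reads in the 8 cells at this position, 7 had none, and 6 had none at either position. Their summed level at the mesenchyme position was 1752, 1365 and 1044 CPM in untreated embryos 1 to 3 and 23.2 and 8.63 CPM in treated embryos 1 and 2. At the muscle position it was 199, 168 and 94.0 CPM in untreated and 26.5 and 103 CPM in treated embryos. The sums of the mesenchyme position were lower in both treated embryos than in any untreated one, in genes chosen as high in the untreated embryos and with reads beside UMIs. Of all 6814 genes in the test of the difference, 15.9% had every treated embryo below every untreated embryo at this position, and 18.1% had every treated embryo above. The sums of the mesenchyme position were above those of the muscle position in 3 of 3 untreated and in 0 of 2 treated embryos. None of the 13 was called in the treated contrast, where 5 of them had enough reads to be tested. The 13 higher calls became 9 to 15 without 1 untreated embryo, 5 without the block, 6 with an equal weight per cell and 4 at a minimum count of 50. Since the untreated contrast chose these genes, its size in the untreated embryos is a description and not a test.

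**Figure D1:**
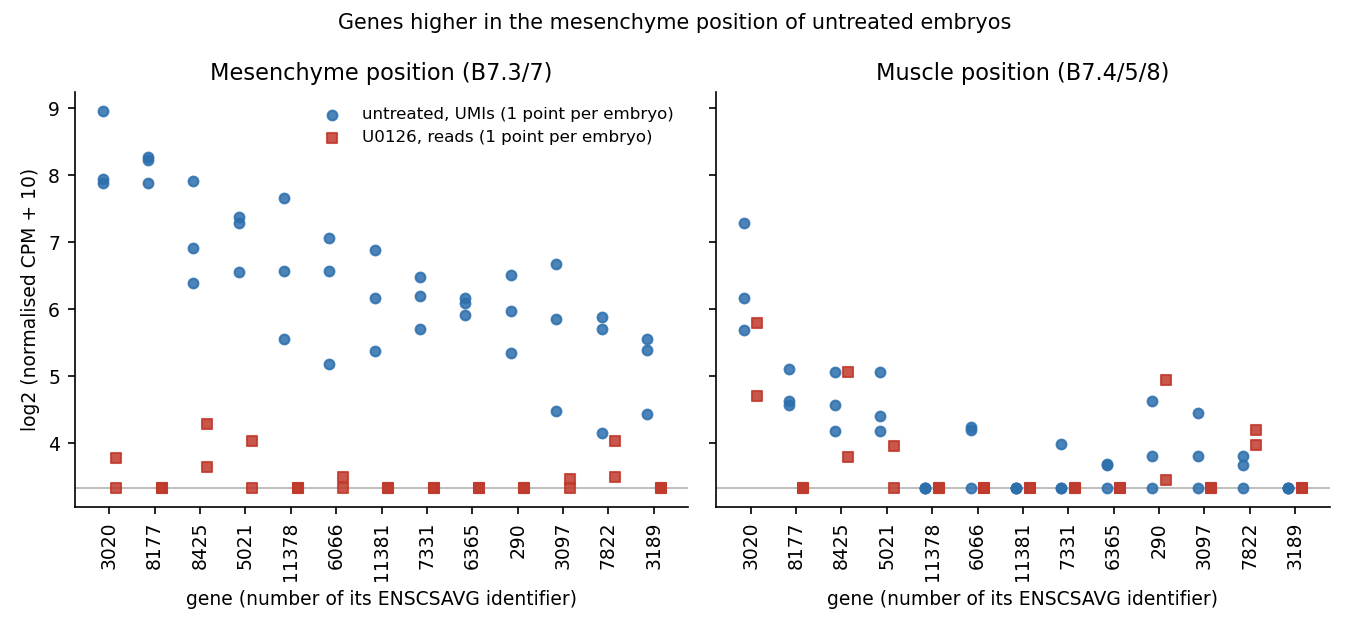
Level of the 13 genes that were higher at the mesenchyme position of untreated embryos, as log2 of normalised CPM plus 10, with 1 point per embryo; the grey line marks a level of 0. At the mesenchyme position (left) the untreated embryos stand above the treated ones for every gene, and 7 genes lie on the line in both treated embryos; at the muscle position (right) the groups overlap for most genes.

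ENSCSAVG00000008177 had 239 of its 265 UMIs in untreated embryos at the mesenchyme position. It stood at 298, 288 and 227 CPM there in untreated embryos 1 to 3, and at 24.4, 14.7 and 13.8 CPM at the muscle position (log2 fold change 3.97, SE 0.43, adjusted p 1.05e-09, edgeR). Every one of the 11 untreated cells at the mesenchyme position had a UMI of it, and the 8 treated cells had 0 reads. The treated muscle position had 0 reads as well, and all classes of the treated embryos together had 4. The untreated mean of 271 CPM (SD 38.6, n = 3) is far above the limits of 1.58 CPM in reads and 6.30 CPM in UMIs that a count of 0 leaves in treated cells.

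ENSCSAVG00000011378 and ENSCSAVG00000011381 were found at the mesenchyme position of untreated embryos with 107 and 66 UMIs and at the muscle position with none. ENSCSAVG00000011378 was at 192, 84.6 and 36.9 CPM in untreated embryos 1 to 3, and a single cell held 58.9% of its UMIs. ENSCSAVG00000011381 was at 108, 61.5 and 31.6 CPM, with 62.1% of its UMIs in a single cell. Neither had a read in any class of the treated embryos. The identifiers between them, ENSCSAVG00000011379 and ENSCSAVG00000011380, had too few counts for the test within either group. They had 56 and 37 UMIs at the untreated mesenchyme position, none at the muscle position and 0 reads at both treated positions. How reads that match more than 1 of such neighbouring identifiers were counted is not stated.

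Other genes of the list stood at various levels at the untreated mesenchyme position. ENSCSAVG00000008425 had a mean of 138 CPM (SD 82.0, n = 3) there in untreated and 5.97 CPM (SD 4.95, n = 2) in treated embryos. ENSCSAVG00000006066 had 78.0 CPM (SD 48.7) and 0.616 CPM, ENSCSAVG00000006365 56.5 CPM (SD 5.91) and 0, and ENSCSAVG00000003097 50.7 CPM (SD 40.1) and 0.526 CPM. ENSCSAVG00000007822 had 33.0 CPM (SD 22.2) and 3.77 CPM (SD 3.59).

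The 2 untreated classes merged at the mesenchyme position differed in these genes. Levels of these single classes are CPM without the TMM adjustment. ENSCSAVG00000011378 was at 337, 163 and 139 CPM in B7.7 of untreated embryos 1 to 3 and at 0 in B7.3. ENSCSAVG00000003189 was the opposite, at 93.0, 32.2 and 55.8 CPM in B7.3 and at 0 in B7.7. ENSCSAVG00000008177 was in both, at 179, 214 and 151 CPM in B7.3 and 415, 406 and 477 CPM in B7.7. The single class B7.3/7 of treated embryos does not separate these cells, but genes of either kind were at 0 in it.

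The 13 genes fell into several patterns over the rest of the treated embryo. ENSCSAVG00000007331 and ENSCSAVG00000003189 also marked A7.3/7, the class of the anterior notochord precursors, in untreated embryos, with means of 135 and 154 CPM there. In the treated embryos all classes together held 6 and 3 reads of them. In all, 6 of the 13 had at most 5 reads in the whole treated embryos, beside at least 51 UMIs for each of the 13 in the untreated ones. Other genes stayed present away from the mesenchyme position. ENSCSAVG00000005021 stood at 155, 146 and 84.4 CPM at the untreated mesenchyme position and at 6.31 and 0 CPM at the treated one. In A7.4/8, the nerve cord class, its mean was 107 CPM in untreated and 261 CPM in treated embryos. These levels set reads beside UMIs and were not tested.

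ENSCSAVG00000000290, the gene given as a marker of these cells, belonged to the second pattern. Its level at the mesenchyme position was 81.2, 30.8 and 52.7 CPM in untreated embryos, against 4.06, 14.7 and 0 CPM at the muscle position (log2 fold change 3.12, SE 0.61, adjusted p 0.00064, edgeR). The untreated call was lost without untreated embryo 1 (2.43, adjusted p 0.164) and with an equal weight per cell (2.48, adjusted p 0.132). A UMI was found in 10 of the 11 untreated cells there. In treated embryos it had 0 reads in all 8 cells at the mesenchyme position, and 0.947 and 20.6 CPM at the muscle position. It was not specific to the mesenchyme position: in untreated embryos A7.1/2/5/6, the class with most endoderm precursors, had 174, 141 and 140 CPM. In treated embryos A7.3/7 had 518 and 306 CPM, A7.1/2/5/6 504 and 185, A7.4/8 383 and 237, and B7.1/2 208 and 81.5 CPM. The marker thus goes against the name mesenchyme in treated cells, and the class is called by its position throughout. B7.6, the germline class, had 0 in both groups.

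**Figure D2:**
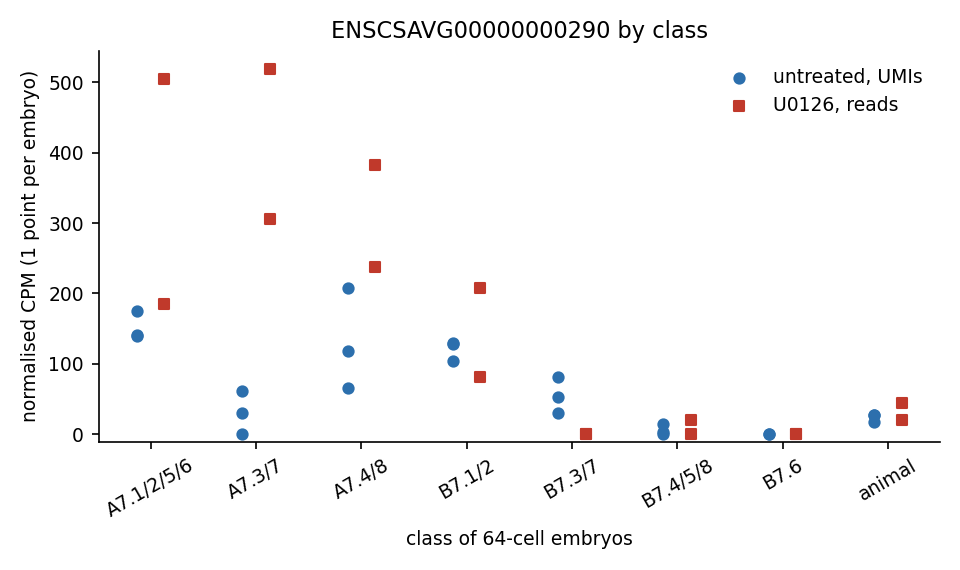
Normalised CPM of ENSCSAVG00000000290 in each class of the 64-cell embryos, with 1 point per embryo (blue circles untreated, in UMIs; red squares U0126, in reads). The treated embryos have 0 in B7.3/7 and stand between 81.5 and 518 CPM in the 4 classes on the left.

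A class-by-treatment interaction asked whether the treated contrast differed from the untreated one. Of 6814 genes tested, 0 were higher (0%) and 2 were lower (0.0294%) in treated than in untreated embryos, and 349 had an unadjusted p under 0.05. ENSCSAVG00000000290 was 1 of the 2, with a difference of -9.10 on the log2 scale (SE 1.76, adjusted p 0.0185, edgeR). The fitted size rests on 0 reads at 1 position and is no bound. Of the 16 reads at the treated muscle position, 15 were in embryo 2. The adjusted p was 0.486 without treated embryo 2, 0.24 without untreated embryo 1, 0.173 without untreated embryo 3 and 0.905 by limma. The other was ENSCSAVG00000006303. It stood at 278, 258 and 248 CPM at the mesenchyme position of untreated embryos and at 75.8 and 32.0 CPM in treated ones. At the muscle position it was at 244, 153 and 155 CPM in untreated and 172 and 158 CPM in treated embryos. Its difference was -2.14 (SE 0.40, adjusted p 0.0145, edgeR). The treated embryos were lower at the mesenchyme position and the groups overlapped at the muscle position. The adjusted p was 0.11, 0.248 and 0.173 without untreated embryo 1, 2 or 3, and 0.2 by limma.

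ENSCSAVG00000003020 had opposite directions in all embryos of the groups. It was at 487, 235 and 227 CPM at the mesenchyme and 146, 61.8 and 41.5 CPM at the muscle position of untreated embryos. In treated embryos it was at 0 and 3.70 CPM at the mesenchyme and 16.1 and 45.2 CPM at the muscle position. The interaction did not pass (-6.19, SE 1.37, adjusted p 0.0943, edgeR). For ENSCSAVG00000008177 and the 5 other genes with no read at either treated position, the interaction could not be estimated (unadjusted p near 1). The absence of a call is no sign there that the contrast was kept.

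Genes of the muscle side had a smaller median contrast in treated than in untreated embryos, leaving aside a run of genes with neighbouring identifiers that is given further on. Of the 36 genes lower at the mesenchyme position of untreated embryos, 14 lie outside this run. Their median log2 ratio of mesenchyme over muscle position was -1.59, -1.58 and -1.60 in untreated embryos 1 to 3 and -0.90 and -0.81 in treated embryos, beside 0 to -0.02 for all 6814 genes. The ratios use normalised CPM with a pseudocount of 10, and the untreated values are inflated by the choice of the list. The treated contrast called 1 of the 14, all of which were tested. Their summed level at the mesenchyme position was 1403, 1034 and 1018 CPM in untreated and 2927 and 2143 CPM in treated embryos. At the muscle position it was 3390, 2641 and 3032 CPM in untreated and 5755 and 4419 CPM in treated embryos, so that the sums of both positions were higher in the treated embryos. These sums set reads beside UMIs, and ENSCSAVG00000003407 alone held 1909 of the 4521 reads at the treated mesenchyme position. Of all genes, 18.1% had every treated embryo above every untreated one at the mesenchyme position. That share was not counted at the muscle position.

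ENSCSAVG00000006271 was the gene of this side called in both groups. In treated embryos it was at 266 and 324 CPM at the mesenchyme and 1420 and 1150 CPM at the muscle position (log2 fold change -2.13, SE 0.22, adjusted p 3.56e-07, edgeR). In untreated embryos it was at 399, 381 and 369 CPM against 727, 644 and 934 CPM (-0.99, SE 0.17, adjusted p 4.35e-05). The positions did not overlap in either group. The difference between the groups was -1.14 (SE 0.28) and did not pass (adjusted p 0.207).

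Genes of the muscle side were found at various levels at the treated mesenchyme position. ENSCSAVG00000002947 had no UMI in the 11 untreated cells there, against 60.9, 41.2 and 82.9 CPM at the muscle position. It was at least 15.4-fold higher at the muscle position, pooled over embryos and without the TMM adjustment. In treated embryos it was at 20.0 and 17.3 CPM at the mesenchyme position, in 4 of the 8 cells, and at 103 and 83.6 CPM at the muscle position. ENSCSAVG00000002624 had no UMI at the untreated mesenchyme position and 55.8 and 70.2 CPM at the treated one. Its untreated muscle position held only 18 UMIs, at 5.53 to 32.3 CPM. Its untreated call (adjusted p 0.0476, edgeR) was lost in 9 alternatives and kept in 2. Its treated muscle position had 32.2 and 169 CPM, on both sides of these values, and its treated mean in the class of animal cells was 114 CPM. ENSCSAVG00000008065 was at 29.5, 11.5 and 10.5 CPM at the untreated and at 98.9 and 116 CPM at the treated mesenchyme position. Its muscle position was at 171, 58.8 and 122 CPM in untreated and 225 and 154 CPM in treated embryos. ENSCSAVG00000004689 was at 22.1, 7.69 and 15.8 CPM at the untreated and at 115 and 127 CPM at the treated mesenchyme position, beside 162 and 147 CPM at the treated muscle position. For these 4 genes both treated embryos were above all untreated ones at the mesenchyme position, as were 18.1% of all genes, and ENSCSAVG00000004689 was picked with its values in view. The groups overlapped there for 2 other genes of this side. ENSCSAVG00000003446 was at 0, 0 and 5.27 CPM in untreated and 2.10 and 35.7 CPM in treated embryos, and ENSCSAVG00000006057 at 4.92, 0 and 0 CPM and at 2.10 and 13.6 CPM. The untreated calls of these genes were lost in 9 alternatives each and kept in 4 and 5. The interaction did not pass for the first 4 (adjusted p 0.72, 0.72, 0.938 and 0.897, edgeR), and reads stand beside UMIs in these levels.

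**Figure D3:**
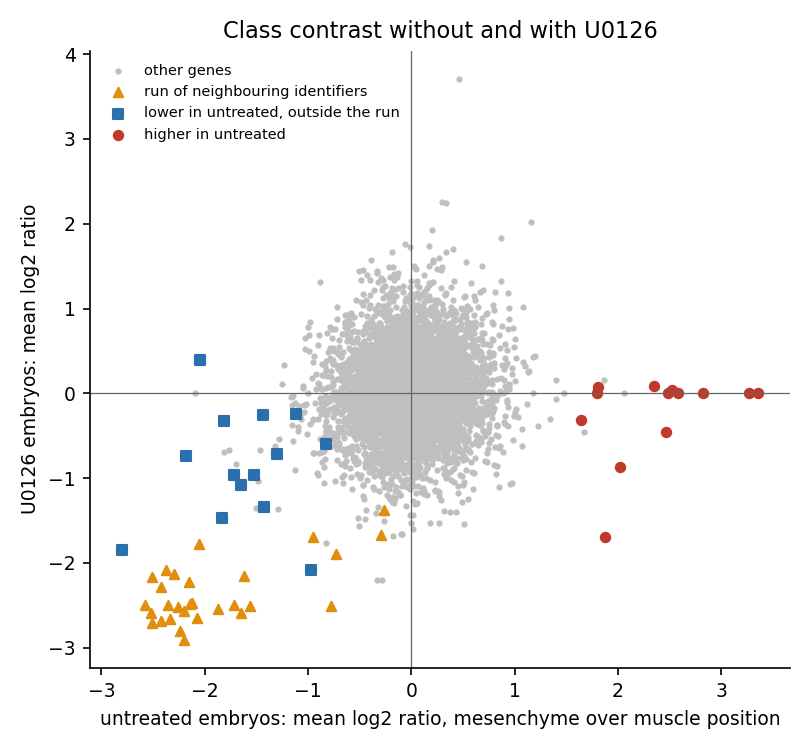
Mean log2 ratio of mesenchyme over muscle position (normalised CPM plus 10) in treated embryos against untreated embryos, with 1 point for each of the 6814 genes of the difference test. The 13 genes higher in untreated embryos (red circles) lie between -1.70 and 0.08 on the treated axis, while the genes of the run (orange triangles) are below 0 on both axes.

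In the treated embryos themselves, 3 of 7458 tested genes were higher at the mesenchyme position (0.0402%) and 26 were lower (0.349%), and 357 had an unadjusted p under 0.05. The count of 29 calls became 454 without embryo 1 and 201 without embryo 2, in fits where the lone embryo is assumed to vary like the untreated ones. None of the 3 higher genes was among the 13 of the untreated contrast. Of the lower genes, 22 were called in both groups, 84.6% of those in treated and 61.1% of those in untreated embryos; 21 of the 22 lie in the run and the other is ENSCSAVG00000006271. The 3 other lower genes of the treated contrast outside the run were ENSCSAVG00000007478, ENSCSAVG00000007815 and ENSCSAVG00000011092. ENSCSAVG00000007815 was at 96.8 and 133 CPM at the treated mesenchyme and 330 and 256 CPM at the treated muscle position (log2 fold change -1.36, SE 0.29, adjusted p 0.0207, edgeR). Its untreated positions overlapped. ENSCSAVG00000007478 had a log2 fold change of -2.12 (SE 0.48, adjusted p 0.0436), with the muscle position at 61.6 CPM in embryo 1 and 410 CPM in embryo 2. A single cell held 78.0% of its 364 reads at the muscle position. The call was lost in 8 of 13 alternatives, among them without treated embryo 2 (-0.25, adjusted p 0.87).

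The 3 higher genes were of unlike kinds. ENSCSAVG00000005140 was at 777 and 67.8 CPM at the mesenchyme and 2.84 and 17.8 CPM at the muscle position (log2 fold change 5.86, SE 1.03, adjusted p 0.00213, edgeR). A single cell held 92.6% of its 793 reads at the mesenchyme position. The log2 fold change was 1.93 without treated embryo 1 (adjusted p 0.0394), and limma gave an adjusted p of 0.805. The gene also varied in other treated classes, at 67.9 and 375 CPM in the animal class of the 2 embryos. ENSCSAVG00000011890 and ENSCSAVG00000012450 are abundant transcripts with a small contrast. ENSCSAVG00000011890 was at 26281 and 27413 CPM against 15249 and 16123 CPM (0.78, SE 0.17, adjusted p 0.0366). ENSCSAVG00000012450 was at 5936 and 10417 CPM against 4178 and 5215 CPM (0.77, SE 0.16, adjusted p 0.0207). Both calls were lost without either treated embryo, in a fit that takes the spread from all 64-cell embryos, with an equal weight per cell, at a minimum count of 50 and without the block. In these settings the log2 fold change ran from 0.71 to 0.79 for ENSCSAVG00000011890 and from 0.48 to 1.01 for ENSCSAVG00000012450.

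Most genes called between the positions in treated embryos belong to a run of 42 genes whose identifiers lie within 30 of that of ENSCSAVG00000012509, the most abundant gene. Of the 31 run genes tested in treated embryos, 22 were lower at the mesenchyme position and none was higher. In untreated embryos 22 of 23 were lower and none was higher. Of all genes tested, 0.349% were lower in treated and 0.641% in untreated embryos. How reads that match more than 1 identifier of the run were counted is not stated, so these calls may not be independent. The median fitted log2 fold change of the 21 genes called in both groups was -2.53 in treated and -2.27 in untreated embryos. ENSCSAVG00000012509 was at 81318 and 115291 CPM at the mesenchyme and 539118 and 562750 CPM at the muscle position of treated embryos (log2 fold change -2.52, SE 0.21, adjusted p 4.17e-08, edgeR). In untreated embryos it was at 42720, 19101 and 42361 CPM against 119819, 55259 and 133689 CPM (-1.55, SE 0.22, adjusted p 7.76e-07). The difference between the groups did not pass for any gene of the run.

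The run took 10.1% and 15.0% of the reads at the treated mesenchyme position (mean 12.6%, SD 3.52, n = 2) and 43.5% and 44.9% at the muscle position (44.2%, SD 1.02). In untreated embryos the shares were 6.51%, 3.59% and 6.05% of UMIs (5.38%, SD 1.57, n = 3) and 17.5%, 11.2% and 22.6% (17.1%, SD 5.70). The treated cells ran from 4.11% to 16.7% at the mesenchyme and from 35.3% to 52.3% at the muscle position, with no overlap. The untreated cells ran from 2.01% to 10.8% and from 6.82% to 28.9%, and overlapped. Cells of an embryo are not replicates, and no test was made on them. The treated shares were above the untreated ones in every class. They were 28.7% and 30.9% against 9.20%, 7.74% and 18.9% in A7.4/8, and 23.3% and 23.4% against 4.05% and 5.34% in B7.6. The treated animal class had 10.0% and 12.5% against 4.38%, 3.07% and 8.29%, and A7.3/7 had 9.23% and 8.06% against 2.09%, 2.41% and 4.01%. In A7.1/2/5/6 the shares were 5.88% and 11.03% against 3.57%, 2.99% and 4.73%, and in B7.1/2 they were 5.33% and 12.2% against 4.43%, 3.76% and 4.33%. The part of the kind of count in these shares was not tested. A share this large lowers the CPM of all other genes at the muscle position, which TMM scaling is meant to correct. With the run left out, the treated contrast called 3 genes higher and 2 lower.

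**Figure D4:**
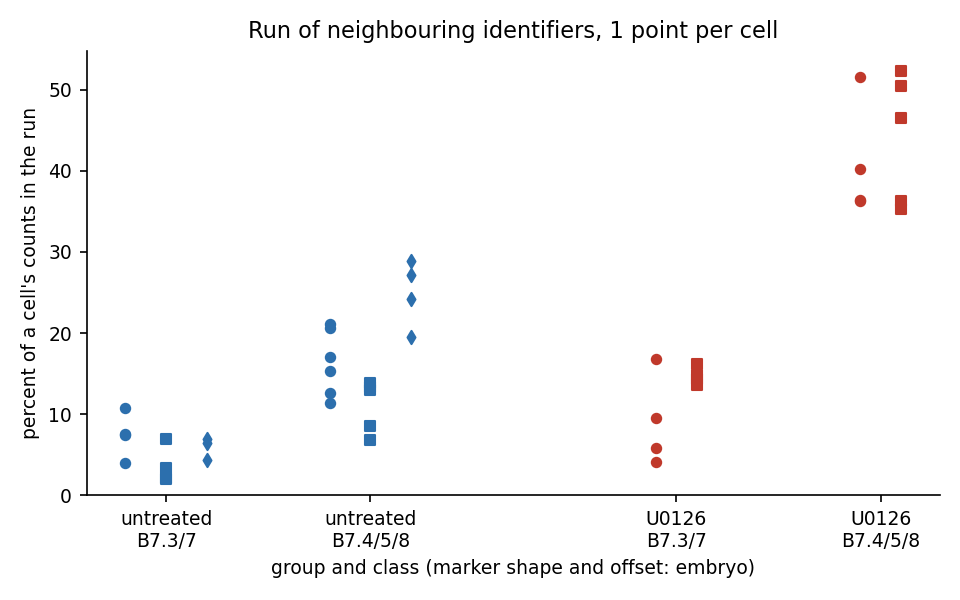
Percent of each cell's counts in the run of 42 genes, with 1 point per cell, by group and class (marker shape and offset give the embryo; blue untreated, in UMIs; red U0126, in reads). The treated cells of B7.4/5/8 stand between 35.3% and 52.3%, above all treated cells of B7.3/7.

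A list chosen in other embryos was measured in both groups, so that neither group's own values chose it. The choosing embryos were untreated and counted in UMIs, as the untreated 64-cell embryos were, so the choice is not neutral between the groups. Mesenchyme classes (B7.7 and B8.5) were compared with muscle classes (B8.7/8 and B8.15/16) in the 3 untreated embryos of the 110-cell stage. There, 35 of 5186 tested genes were higher in mesenchyme (0.675%) and 64 were lower (1.23%; edgeR). At 64 cells, the median log2 ratio of the 35 genes was 0.69, 0.77 and 1.04 in untreated embryos 1 to 3, and 0 in both treated embryos. In untreated embryos 10 of the 29 genes that could be tested were called higher, beside 0.232% of all genes tested. These 10 are among the 13 genes described above, so this list is not separate from that one. In treated embryos 0 of 16 were called, where 0.0402% of all genes were, so that nothing is read from this count. Of the 35, 17 had no read at the treated mesenchyme position and 1 had no UMI at the untreated one. In treated embryos 9 and 10 of the 35 had a ratio above 0, 11 and 10 a ratio below it, and 15 in each a ratio of exactly 0. In untreated embryos 29, 28 and 26 were above 0 and 4, 5 and 6 below it. Their summed level at the mesenchyme position was 2835, 2399 and 2046 CPM in untreated and 530 and 860 CPM in treated embryos. At the muscle position it was 962, 1029 and 929 CPM in untreated and 639 and 705 CPM in treated embryos. The sum was thus lower at the mesenchyme position in treated embryo 1 and higher in treated embryo 2. Both treated embryos were below all untreated ones at either position, with reads beside UMIs.

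The 64 genes lower in mesenchyme at 110 cells held 21 of the run and 43 others. The median log2 ratio of the 43 was -0.86, -0.76 and -0.89 in untreated and -0.46 and -0.34 in treated embryos, beside 0 to -0.02 for all 6814 genes. Of those tested, 1 of 35 in treated and 10 of 29 in untreated embryos were called lower, beside 0.349% and 0.641% of all genes. The 10 called in untreated embryos are among the 14 genes of the muscle side given above. The median of the 21 run genes was -1.60, -1.91 and -3.28 in untreated and -2.85 and -2.22 in treated embryos. The ranges of the groups do not overlap for the first 2 lists and overlap for the run. Over all 64 the mean of the embryos' medians was -1.27 in untreated and -0.95 in treated embryos. Of the 5 largest genes on the muscle side at 110 cells, ENSCSAVG00000002947 is described above. ENSCSAVG00000011213, ENSCSAVG00000004176 and ENSCSAVG00000006193 had at most 9 counts at any position of either group at 64 cells. ENSCSAVG00000002225 was at 89.3, 29.4 and 33.2 CPM at the untreated muscle position and at 0 and 9.59 CPM at the treated one.

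**Figure D5:**
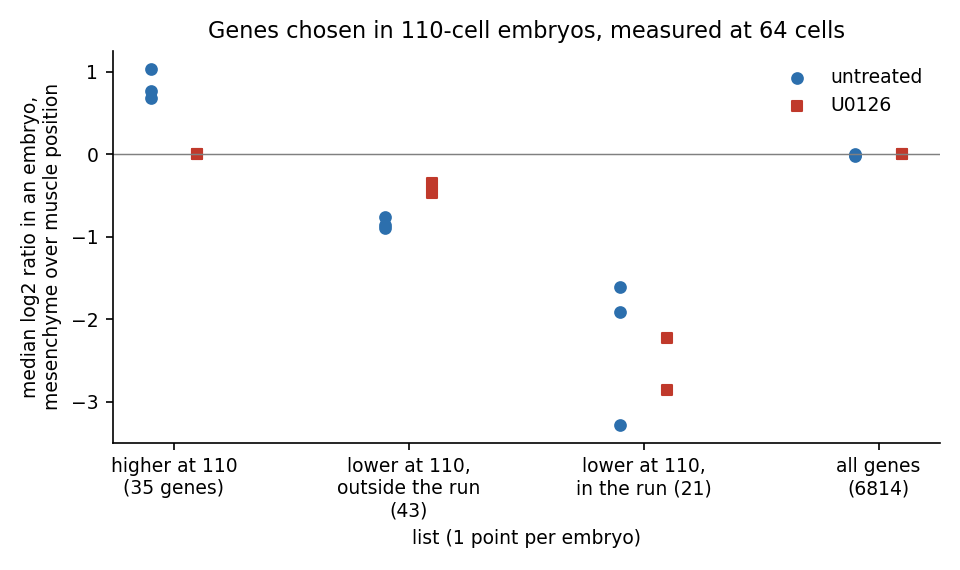
Median log2 ratio of mesenchyme over muscle position at 64 cells for genes chosen in 110-cell embryos, with 1 point per embryo (blue circles untreated; red squares U0126). The genes higher at 110 cells stand at 0 in both treated embryos and at 0.69 to 1.04 in untreated ones, and the run genes stand between -3.28 and -1.60 in all 5 embryos.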

How the data were processed

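The authors deposited 1 matrix of counts, which per the file headers has 1 column per cell, and a table that gives each cell its library, embryo, class, reads and UMIs. Columns of the U0126 embryos are read counts and those of the untreated 64- and 110-cell embryos are UMI counts, tested by setting column totals beside the authors' table. CASAVA 1.8, DESeq2 and Seurat are listed, with no role, in the submitters' processing notes; aligner, genome build and counting method: not given in the sources used here. Of the matrix columns, 86 were not used here. Counts were summed per embryo and class, without cells marked low quality. Main tests used edgeR 4.0.16 in R 4.3.3: TMM, filterByExpr (minimum count 10), a quasi-likelihood fit of all classes of a group, embryo as block, and Benjamini-Hochberg adjusted p under 0.05 over every gene tested. The classes of 1 embryo come from the same animal, which is the source of the pairing. GEO's labels do not say whether embryos came from separate crosses. With the embryo as block, p-values set a contrast against how classes vary within these embryos, with the spread taken from all classes and not from the contrasted positions alone. Alternatives used DESeq2 1.42.0, limma 3.58.1 (voom with quality weights), RLE scaling, other filters, other sums and leaving out each embryo. Ratios used log2 of normalised CPM with a pseudocount of 10 (alternative 40). The treated, untreated and difference fits were tried on simulated counts in which 200 genes were changed 4-fold. Of the changed genes that were tested, 53% were recovered in the treated, 96.3% in the untreated and 48.7% in the difference fit. False calls were 5 of 111, 11 of 195 and 4 of 101. The simulated dispersion, a measure of spread between sums, was set to 0.14, 0.02 and 0.06, so the rates also reflect these settings. Sums were drawn without an embryo effect. All changed genes were above the median abundance, so genes below it were not covered. The other steps were not simulated. Tables used Python 3.11.15, pandas 2.3.3, numpy 2.4.6 and matplotlib 3.10.9. Named genes had an adjusted p under 0.05, the same sign in every embryo of the group (for the difference, no overlap of the groups) and were among the 10 largest in a direction; from the 110-cell list, the 5 largest in each direction were taken. Named outside this rule, with values in view, were ENSCSAVG00000008425, ENSCSAVG00000003020, ENSCSAVG00000006271, ENSCSAVG00000004689, ENSCSAVG00000007478, ENSCSAVG00000007815, ENSCSAVG00000011092 and ENSCSAVG00000012509. The cells, the gene lists, the run of identifiers and the tests were chosen with earlier results of these data known. Marker lists by symbol could not be used, since 0 identifiers matched a symbol.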

Additional observations from a re-analysis of the deposited data

Results flagged for a closer look

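Opposite directions were looked for only among the genes named or called here, and their share of all 6814 genes was not counted. In 3 of those searched, the contrast between the mesenchyme and the muscle position differed in direction between treated and untreated embryos. For 2 of them the difference passed the interaction test: ENSCSAVG00000000290 (log2 difference -9.10, adjusted p 0.0185, edgeR) and ENSCSAVG00000006303 (-2.14, adjusted p 0.0145, edgeR). In each, 2 of 2 treated embryos were lower and 3 of 3 untreated embryos higher at the mesenchyme position. For ENSCSAVG00000000290 the direction in treated embryo 1 rests on 0.947 CPM at the muscle position against 0 (log2 ratio -0.13). ENSCSAVG00000003020 had the same pattern in all 5 embryos with a log2 difference of -6.19, and its interaction did not pass (adjusted p 0.0943, edgeR). The treated values are reads and the untreated values UMIs, so the kind of count cannot be told apart from the treatment. With reads scaled to UMIs, the difference of ENSCSAVG00000000290 no longer passed, as given in the next section.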

How the results depend on the processing

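Of the treated contrast, the 29 calls became 61 with a filter of any count, 5 without the run, 55 with the 2 classes alone, 56 in the joint fit and 201 to 454 without 1 treated embryo. The 49 calls of the untreated contrast became 26 with a minimum count of 50, 24 without the run, 32 with an equal weight per cell and 21 with no replicate block (21 in treated embryos too). The 2 calls of the difference became 4 by DESeq2, 18 with any count, 4 with B7.5 left out, 1 with the 2 classes alone, 1 with reads scaled to UMIs, and 0 by limma (354 genes at an unadjusted p under 0.05), with an equal weight per cell (268) or with no replicate block (186); they ran from 0 to 157 without 1 embryo. For ENSCSAVG00000000290, the treated log2 fold change passed with any count (-6.73) and without treated embryo 1 (-6.59, adjusted p 0.0106), and ran from -6.59 to -2.50 without 1 embryo. Its untreated value no longer passed with an equal weight per cell (2.48), for B7.7 against B7.8 (3.28) or without untreated embryo 1 (2.43, adjusted p 0.164), and ran from 2.43 to 5.08 without 1 embryo. Its difference no longer passed by limma (-6.28), with an equal weight per cell (-7.82), with no replicate block (-8.98), with the 2 classes alone (-8.45) or with reads scaled to UMIs (-7.66), and ran from -11.36 to -5.64 without 1 embryo. The untreated sign turned for ENSCSAVG00000011378 (-0.20) and ENSCSAVG00000011381 (-0.051) in B7.3 against B7.4 and for ENSCSAVG00000003189 (-0.18) in B7.7 against B7.8, pairs in which neither class has a UMI of the gene. In untreated embryos, the median of the 35 genes was 0.42 with a pseudocount of 40. It was 1.30 for genes of a log2 fold change of at least 2, and 0.73 to 1.15 without 1 embryo. In treated embryos it was 0 throughout. There, 15 of the 35 genes had a ratio of exactly 0 in each embryo, so this constancy is no sign of stability. The median of the 64 genes was -0.71, -1.19 and, without the run, -0.40 in treated and -0.88, -1.61 and -0.84 in untreated embryos, and -1.12 to -0.85 in treated embryos without 1 embryo. With identifiers within 10, the run held 36.0% at the treated muscle position. Except for the run, these settings change the samples, the genes tested or the model, and the cause of each change was not tested. With 2 treated embryos and sums of 4 or 5 cells, depth limits genes of few reads: a count of 0 does not show that a gene was off.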
